A study of Drosophila melanogaster with 382 samples.

Results

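The 60 genes described here ranked highest, under the rule below, for RNA lying towards the posterior of wild-type Drosophila melanogaster embryos late in nuclear cycle 14. They were ranked among 3162 genes of the 13587 named genes in the table. To be ranked, a gene needed 15 FPKM (fragments, scaled to transcript length and to the fragments of the library) or more in a slice of both the cycle 14C and the cycle 14E wild-type embryo. Its highest slice also had to lie before the last measured slice in at least 1 of these 2 embryos, which left out 310 genes that peaked at the very end in both. Ranking then used the smaller of a gene's 2 posterior shares, where a posterior share is the percentage of the FPKM summed over all slices that lies in the rear part of the embryo. For this the length was cut into 3 equal parts, called front, middle and rear below. The members were thus chosen by the measured FPKM of these 2 embryos, whose values are given below only as a description.

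The study cut single fixed embryos from anterior to posterior and sequenced each slice, to ask how patterning mutations change where RNA lies. There were 382 slices from 25 embryos, and the embryo is the replicate. The bcd RNAi group held 4 embryos (2 at cycle 13 and 2 at cycle 14D) and the hb RNAi group 3 (1 at cycle 13 and 2 at cycle 14D), in both of which a maternal tubulin Gal4 driver expressed a hairpin against bicoid or hunchback in the germ line of mothers aged about 30 days. The 2.4X bicoid overexpression group (2.4x bcd below) held 4 embryos, 2 at each of these cycles, from mothers aged 3 to 7 days with an eGFP-Bcd transgene. The zld group held 7 embryos from germ line clones that lack the maternal Zelda gene, with mothers aged 3 to 10 days (3 at cycle 13 and 1 each at 11, 14A, 14B and 14D). The wild type held 7 Canton-S embryos, 1 for every stage (11, 13, and 14A through 14E). All embryos were fixed in methanol. The zld and wild-type libraries were made with TruSeq and yeast carrier RNA, while bcd RNAi, hb RNAi and 2.4x bcd libraries were made with SMARTseq2 without carrier, so that the kit and the line cannot be told apart when these lines are set against wild type.

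The anterior-posterior axis of the fly embryo is set up by RNAs that the mother places in the egg. Bicoid protein, made from RNA held at the anterior end, activates anterior genes such as hunchback and blocks translation of maternal caudal RNA there, which leaves Caudal protein in the posterior. Zelda, a maternal DNA-binding protein, opens early enhancers and allows many genes to be switched on as the zygotic genome awakens.

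Depth and labels bear on what follows. Depth, estimated from the value of 1 fragment in each slice, was between 245471 and 12302700 fragments per slice with a median of 2818380. The wild-type embryos that chose the members were shallow, with medians of 1293720 fragments per slice at cycle 14C and 389045 at cycle 14E. Over the 59 members with an annotated length, the estimated fragments behind a member in the whole embryo ranged upwards from 20.4 at cycle 14C and from 24.9 at cycle 14E, and 8 and 19 of them were under 100. The targeted RNAs were lower than in the line set against them: at cycle 14D, bicoid RNA averaged 0.93 and 1.84 FPKM in bcd RNAi embryos against 11.3 and 4.21 FPKM in 2.4x bcd embryos, hunchback RNA 29.9 and 19.2 FPKM in hb RNAi embryos against 42.5 and 48.4 FPKM in 2.4x bcd embryos, and zelda RNA (listed as vfl) 0.115 FPKM in the zld embryo against 10.2 FPKM in wild type. At cycle 14D neither RNA told the RNAi lines from each other, since bicoid RNA was also low in hb RNAi embryos (0.723 and 0.622 FPKM) and hunchback RNA in bcd RNAi embryos (20.1 and 24.4 FPKM). At cycle 13 hunchback RNA averaged 4.55 FPKM in the hb RNAi embryo and 19.1 and 22.9 FPKM in bcd RNAi embryos, and bicoid RNA 6.31 and 9.72 FPKM in bcd RNAi embryos and 33.0 FPKM in the hb RNAi embryo. The wild-type embryo labelled 14D stood apart from its label: its mean bicoid RNA was 72.0 FPKM, between 94.2 FPKM at cycle 13 and 22.4 FPKM at cycle 14A, while cycles 14C and 14E had 24.7 and 2.04 FPKM. The zld embryo labelled 14D had 390 FPKM. Slice 1 was not measured in the wild-type embryos of cycles 13 and 14E, so their means leave out part of the anterior end, where bicoid RNA is held. At wild-type cycle 14B, where the first measured slice was number 4, mean bicoid RNA was 8.10 FPKM. The part of stage in the comparisons with the wild-type and zld embryos labelled 14D was not tested. The carrier yeast also changed within the wild-type cycle 14E embryo, between slices 1 to 11 and slices 12 and 13.

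The rule gave CG43781 the first place, with a smaller posterior share of 72.6%, followed by the noncoding RNA pncr009:3L-RC with 68.6%, CG42762 with 61.2%, the proneural transcription factor gene ac (achaete) with 58.2% and CG11211 with 57.03%. The next 7 lay close together, between 50.01% for CG13018 and 47.2% for Tapdelta, with the peroxiredoxin gene Prx2540-2, the mitochondrial DNA-binding protein gene mtSSB, lin-52, the exosome subunit gene Rrp40 and the mitotic inhibitor gene Z600 among them. At the threshold the members CG14818, CG11837 and robl, a dynein light chain gene, had 40.9%, 40.7% and 40.6%, and the first genes outside, CG5189, CG42382 and CG9921, had 40.5%, 40.5% and 40.5%. A gene with the same FPKM in every slice would have a share of 30% at cycle 14C, and of 44.4% at cycle 14E, where slices 1, 4, 7 and 8 of 13 were not measured. A share near the threshold is therefore below the flat value at cycle 14E, where 44 of the 60 members had a rear-part mean above the mean of their other slices (63.9% of all eligible genes did) and 17 reached 1.5-fold (13.5% of all eligible genes).

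The name posterior fits these genes in part only. At cycle 14C, 49 of the 60 members (81.7%) had their highest value in the last slice, against 26.3% of all 3472 eligible genes, and that slice alone held a median of 22.9% of a member's summed FPKM, against 8.65% over all eligible genes and 10% for a flat gene. At cycle 14D 7 of the 60 had their highest value in the last slice (8.04% of all eligible genes did), and at cycle 14E 1 did (29.1% of all eligible genes), a count that the rule itself limited, since it passed over genes that peaked in the last slice of both chosen embryos. The last slice also carries the pole cells, the germ line precursors. The 10 pole cell and germ plasm RNAs (osk, nos, pgc, gcl, CycB, aub, vas, ovo, orb and Hsp83) used as markers summed to 4249 FPKM in the last slice and a median of 313 FPKM in the others at cycle 14C, to 702 and 509 FPKM at cycle 14D, and to 2898 and 265 FPKM at cycle 14E. Of the last-slice sums, pgc alone gave 3307 FPKM at cycle 14C, 50.7 FPKM at cycle 14D and 1445 FPKM at cycle 14E. The sum at cycle 14C is thus largely that of 1 gene and does not stand for each of the 10. The part of these RNAs in the members' last-slice values was not tested.

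The list was also set beside known patterning genes. Of 50 genes on 9 patterning lists, cad (caudal) was the only member. The lists were not of posterior genes alone, since they also held head, mesoderm, dorsal and pair-rule genes. The terminal and gut genes tll, fkh and byn peaked in the last slice of both embryos and were passed over by the rule, 26 genes, among them the abdominal Hox genes Ubx, abd-A and Abd-B, stayed below 15 FPKM in all slices of at least 1 of the embryos, upd1 was not listed, and 19 were ranked lower. The nearest of these were the pair-rule gene ftz at rank 77 and the dorsal gene zen at rank 98, ahead of hkb at 233, gt at 451 and kni at 1009. Of all 3162 ranked genes 60 were members. The 1 member beside 19 genes ranked lower thus does not show that patterning genes are scarce among the members.

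Membership also depended on how the parts were drawn. With parts drawn over the measured slices alone, 27 of the 60 genes (45.0%) would have been chosen again, and with the last slice of each embryo left out 33 (55.0%). Splitting a border slice in proportion between its parts kept 55 (91.7%), and using mean FPKM per part in place of the sum kept 24 (40.0%). The 21 genes kept by the rule, by parts over measured slices, by split slices and by mean FPKM per part include cad, ac, scw, gk, Z600, Ama, CG42762, CG8353, Rrp40, MED28 and RagA-B.

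By known role the members are mixed. Among regulators are cad, a homeodomain protein needed for posterior segments, ac, the bZIP genes CG18619 (REPTOR-BP) and CG6272 (Irbp18), and MED28 of the Mediator complex. Signalling and cell surface genes are scw (screw), a ligand of the BMP family, Ama (Amalgam), a secreted immunoglobulin-domain adhesion protein, and comm2, of the commissureless family. Cell division is represented by Z600, which holds back mitosis in cycle 14, by msd1, a subunit of the augmin complex of the spindle, and by Slbp, which binds the stem-loop of histone RNAs. Housekeeping genes among the rest are Arpc3A of the Arp2/3 complex, Trs31 of the TRAPP complex, Blos1 of BLOC-1, RagA-B of nutrient sensing and the iron-sulphur genes CG1319 (Fdx2) and CG9836 (IscU). Levels spanned 3 orders of magnitude. Z600 had the highest mean in both chosen embryos, 5554 FPKM at cycle 14C and 4920 FPKM at cycle 14E, while Tapdelta was lowest at cycle 14C with 2.48 FPKM and pncr009:3L-RC at cycle 14E with 4.83 FPKM.

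The members had short transcripts, a property that the rule did not use. Their longest annotated transcript had a median of 856 bases (59 of 60 matched) against 1715 bases over all eligible genes, and 37 of the 59 (62.7%) were under 1000 bases against 19.9% of all eligible genes. Of the genes that peaked in the last slice of both embryos, the 60 of highest rank had a median of 1196 bases (37.3% under 1000 bases). The 60 genes ranked in the same way for the front part had 1591 bases (20.3%). At a given FPKM a short transcript is counted from fewer fragments, and the 2 embryos used by the rule were shallow. At the median slice depth, counting error alone at 15 FPKM on 1000 bases was 22.7% of a slice's value at cycle 14C and 41.4% at cycle 14E. The last slice of cycle 14C, where 49 of the 60 members had their highest value, was the shallowest of that embryo with 426580 fragments. Its counting error was therefore larger than at the median depth. The part of this error in the choice of members was not tested. The genes lay on all major arms, with 12 on 2L, 15 on 2R, 10 on 3L, 15 on 3R and 7 on X. Close neighbours among them were CG14915 (2L:11071027-11071532) and CG43725 (2L:11075513-11075962) with 3981 bases between them, CG31109 and CG11839 on 3R with 15274 bases between them, and CG8369 (3R:8822008-8822838) and CG9836 (3R:8822849-8824177), which are only 11 bases apart, so that their fragments may be hard to assign.

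The other wild-type embryos of cycle 14 were not used by the rule and show how far the posterior bias recurs. The posterior ratio is the log2 of the rear-part mean over the mean of the other slices, each with 1 FPKM added, and a gene is counted here when its ratio is at least 1.5-fold. At cycle 14A 20 of the 60 members (33.3%) reached 1.5-fold, beside 2.85% of all eligible genes. At cycle 14B 20 did, beside 9.88%, and at cycle 14D 21 (35.0%), beside 2.19%. The median ratio of the members was 0.34 at cycle 14A, 0.43 at cycle 14B and 0.39 at cycle 14D, where the medians of all eligible genes were −0.09, 0.06 and −0.07. Ratios above 0 were held by 47 members at cycle 14A, 44 at cycle 14B and 49 at cycle 14D, where 34.7%, 59.1% and 39.4% of all eligible genes had them. These are 1 embryo each, and with the last slice left out the count at cycle 14A was 7 (all eligible genes 0.893%), while at cycle 14D it was 22 (2.56%). From the kallisto values the count was 7 of 58 at cycle 14A (0.967% of all eligible genes) and 16 of 58 at cycle 14D (1.55%), and at cycle 14C, which the rule used, it was 17 of 58 (1.85%), where from FPKM it was 60 of 60 (6.51%). Earlier, at cycle 13, 3 members reached 1.5-fold, beside 1.21% of all eligible genes.

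**Figure D1:**
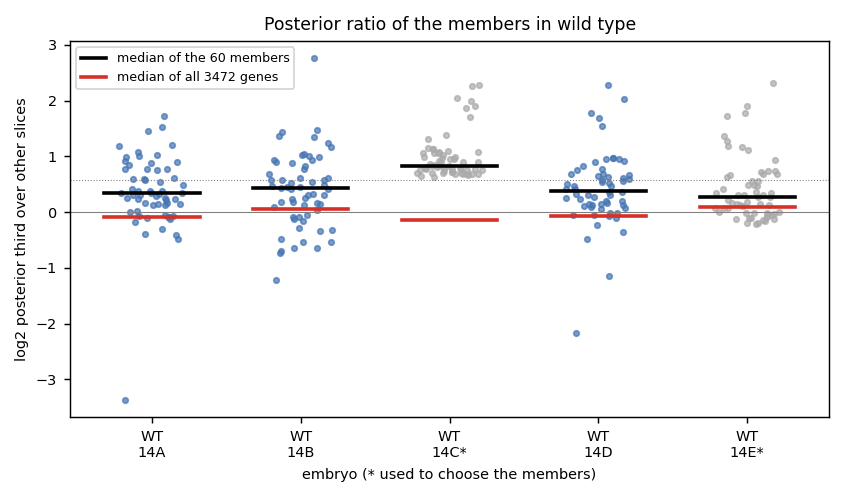
Posterior ratio (log2 of the rear-part mean over the mean of the other slices) of each of the 60 members in the 5 wild-type embryos of cycle 14, 1 point a gene, with black bars for the median of the members and red bars for the median of all 3472 eligible genes; the dotted line is 1.5-fold. Grey embryos (14C and 14E) chose the members; in the other 3, the members' medians are 0.34, 0.43 and 0.39 and single members lie on both sides of 0.

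At cycle 14D, the embryo that was not used and was best covered of these, the members fell into a few with steep posterior profiles and many with shallow ones. The steepest with reads in most slices was cad, with 82.5 FPKM in the rear part against 19.4 FPKM in the other slices. Its values were below 8 FPKM in slices 1 to 5, 18.2 FPKM in slice 6, 54.9 FPKM in slice 8 and 91.6 FPKM in slice 14. At cycle 14C, by contrast, cad was highest at slice 7 of 10 (45.8 FPKM) and fell away towards the tip, where it had 25.7 FPKM. The next were comm2 with a ratio of 1.79 and Ama with 1.55. Ama had 45.7 FPKM in the last slice and 4.73 FPKM in the first, and comm2 stayed at 10.2 FPKM or less in all slices. These and the other genes of this paragraph outside the fixed rule for named genes were chosen after their values were seen. The ratios of CG44286 (2.28) and CG43781 (1.69) rest on few slices: CG44286 had 49.5 FPKM in slice 13 and at most 8.19 FPKM in any other, and CG43781 was likewise seen in isolated slices, with 28.6 FPKM in the last slice at cycle 14C and 60.3 FPKM in slice 10 at cycle 14E. At the other end, pncr009:3L-RC had a ratio of −2.17 and Tapdelta one of −1.15 at cycle 14D, so that ranks 2 and 12 of the list were not posterior there.

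Single profiles differed in shape as well as in steepness. gk (geko) formed a broad posterior hump, with 386 FPKM at slice 10 of 13 at cycle 14E against 10.8 FPKM at slice 2 and 87.3 FPKM at the last slice. The BMP ligand gene scw climbed over the measured slices from slice 5 to the last slice at cycle 14E, where it had 17.6 and 183 FPKM. Some slices between these were not measured, and the carrier yeast changed before slice 12. At cycle 14D scw had 215 FPKM in slice 1, 156 FPKM in slice 9 and 352 FPKM in slice 14, with both ends above the middle. CG42762 was U-shaped too: at cycle 14C it had 582.2 FPKM in slice 1, 136 FPKM in slice 5 and 1743 FPKM in slice 10. ac was high in the last slices of cycle 14C (86.4 FPKM in slice 10), but at cycle 14D its mean was 6.7 FPKM. robl, the last gene admitted, had 789 FPKM in the last slice of cycle 14C and no steady gradient in the other 2 embryos plotted.

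**Figure D2:**
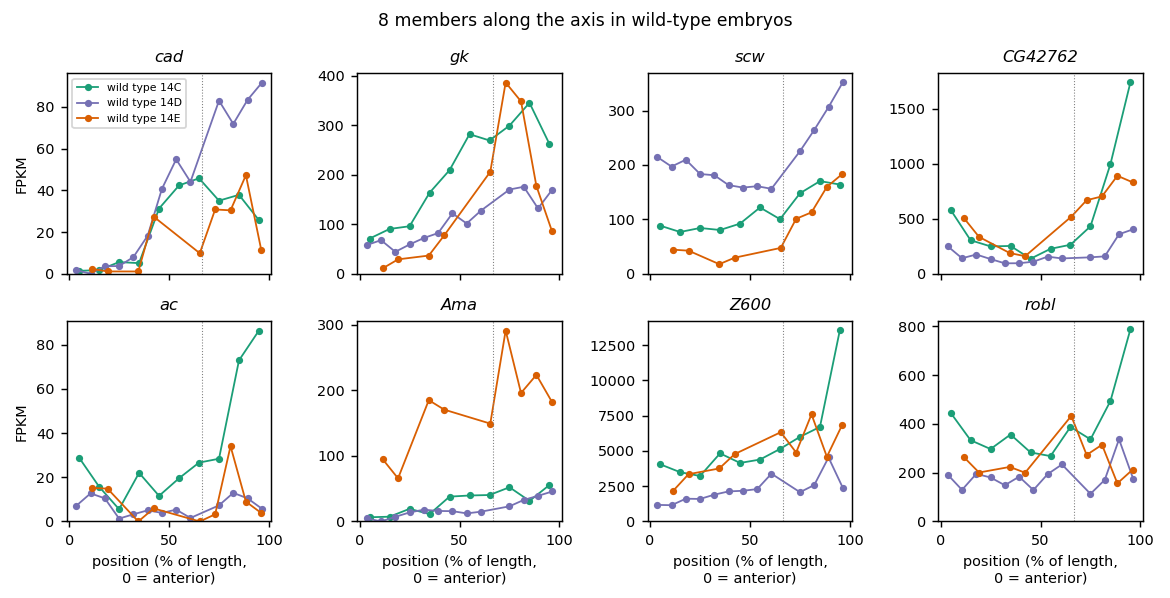
FPKM along the axis (percent of embryo length, 0 is anterior) for 8 members in the wild-type embryos of cycles 14C (green), 14D (purple) and 14E (orange), 1 point a measured slice; the dotted line is the start of the rear part. cad and gk climb through the middle of the embryo, scw, CG42762 and ac have both ends raised in at least 1 embryo, and in Z600 and robl the last slice of cycle 14C stands above the rest (13584 and 789 FPKM).

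Members scarce before the zygotic genome awakens had the steeper posterior ratios at cycle 14D. At wild-type cycle 11, 18 of the 60 members (30%) had a mean under 5 FPKM, against 5.65% of all eligible genes. Of these 18, 13 (72.2%) reached the 1.5-fold posterior ratio at cycle 14D, beside 16.8% of the 196 eligible genes in the same class. Of the 42 members already present at cycle 11, 8 (19.05%) did, beside 1.31% of 3276 genes. The 18 include comm2, Ama, gk, CG15876, CG42762, CG14915, scw, Atx-1, ac and Z600, whereas cad, with 60.6 FPKM at cycle 11, is in the second class. The limit of 5 FPKM was chosen after the data were seen, and no test was made of these shares.

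At cycle 14D, 6 of the 59 members tested had lower levels in the zld embryo than in wild type and none had higher ones, where the level is log2 of the mean FPKM over all slices plus 1, a scale that understates differences of low genes (limma moderated test over 6575 genes, Benjamini-Hochberg adjusted p under 0.05; 1.64% of all genes were lower and 1.22% higher). A gene was tested if a slice of the 8 embryos at cycle 14D reached 15 FPKM, which CG11211 did not. CG14915 had 0.462 FPKM in the zld embryo against 1326 FPKM in wild type, a difference of −9.83 on the log2 scale (SE 0.55, adjusted p = 2.9e-05). CG34214 had 1.28 FPKM in the zld embryo against 1919 FPKM in wild type (−9.72, SE 0.90, adjusted p = 0.000363). CG42762 was listed at 0 in the zld embryo and at 182 FPKM in wild type (−7.52 on this scale, adjusted p = 5.1e-05), so no fold is given. Nearly no signal of these 3 genes was thus left in the zld embryo. Without either hb RNAi embryo the counts were 3 higher and 12 lower, and 1 member was higher with a pseudocount of 0.1 or 5 FPKM, with the replicate number as a block and with parts over measured slices.

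The other 3 were Z600, scw and gk. The mitotic inhibitor gene Z600 had 12.9 FPKM in the zld embryo against 2230 FPKM in wild type (−7.33, SE 0.79). The ligand gene scw had 0.431 FPKM in the zld embryo against 213 FPKM in wild type (−7.23, SE 0.79), and gk 2.53 FPKM against 106 FPKM in wild type (−4.93, SE 0.76, adjusted p = 0.00729). These tests set 1 embryo against 1 and take their spread from the lines with 2 embryos, so the other cycles are given beside them as a description. Over the 6 zld embryos from cycle 13 on, none overlapped in any of the 6 genes with the 6 wild-type embryos from cycle 13 on. The tested zld and wild-type embryos, whose difference chose the 6 genes, are among these, so part of the separation was fixed by that choice. Membership also required expression in 2 of these wild-type embryos. The share of all genes that separate in this way was not counted, so whether the separation is unusual cannot be said. The 2 sets were not matched by stage, since some of the wild-type stages had no zld embryo. CG14915 reached at most 4.83 FPKM in zld embryos against at least 158 FPKM in wild type, CG34214 at most 3.08 FPKM against at least 502 FPKM in wild type, and CG42762 was listed at 0 in all 6 zld embryos against at least 91.6 FPKM in wild type. Z600 reached at most 27.0 FPKM in zld embryos against at least 500 FPKM in wild type, scw at most 0.740 FPKM against at least 82.0 FPKM in wild type, and gk at most 5.88 FPKM against at least 16.9 FPKM in wild type.

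**Figure D3:**
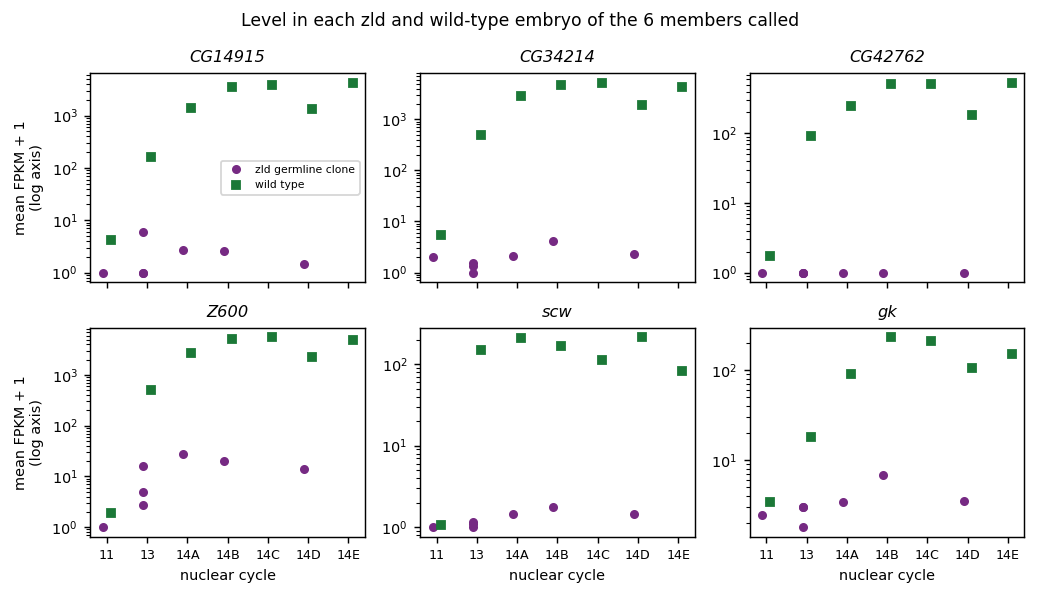
Mean FPKM plus 1 (log axis) by nuclear cycle of the 6 members whose level differed between zld and wild type, 1 point an embryo. In all 6 panels the zld points from cycle 13 on lie below the wild-type points from cycle 13 on, with CG42762 at 0 FPKM in each of these zld embryos. The tested zld and wild-type embryos, whose difference chose the 6 genes, are among these points.

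Counting these 6, 25 members had an unadjusted p under 0.05 for the level (42.4%, where 16.3% of all genes did). ac was at 0.165 FPKM in the zld embryo against 6.7 FPKM in wild type and missed the threshold (−2.72, SE 0.66, adjusted p = 0.0635). Of the 18 members that were under 5 FPKM at wild-type cycle 11, 15 (83.3%) differed by less than −1 at cycle 14D, beside 65.8% of the 196 eligible genes of that class, and all these genes needed 15 FPKM in wild type to be eligible at all. Over the 59 members the median difference was 0.40, near the 0.31 of all genes, and 33 were positive (55.9%, where 70.7% of all genes were). The maternal gene cad had 54.0 FPKM in the zld embryo and 38.8 FPKM in wild type (0.47, SE 0.47, adjusted p = 0.729).

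Where the RNA lay could be followed in the zld embryo for the members still present. CG15876 was the only member whose posterior ratio differed from wild type (−4.27, SE 0.37, adjusted p = 0.0282; 0.137% of all genes were lower). In the zld embryo it had 107 FPKM in slice 1, 42.8 FPKM in slice 8 and 0 in the last slice, and its posterior share was 3.61%. In wild type it had 714 FPKM in slice 1, 433 FPKM in slice 8 and 819 FPKM in the last slice, with a posterior share of 46.3%. The gene's anterior end thus kept some RNA in the zld embryo where the posterior end did not. This call was lost when any 1 of the 6 SMARTseq2 embryos that supply the spread was left out. cad kept its gradient, with 6.86 FPKM in the first slice and 131 FPKM in the last slice of the zld embryo, and its posterior share was 60.8% there against 65.4% in wild type. The 1.5-fold posterior ratio was reached by 6 members in the zld embryo (1.67% of all eligible genes). No member's anterior ratio (log2 of the front-part mean over the middle-part mean, each plus 1 FPKM) passed the test (limma, 0.00% of all genes; 10 members at an unadjusted p under 0.05, where 4.41% of all genes were).

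Between the 2 ends of the Bicoid dose, the comparison with equal kits and 2 embryos a side, the age of the mothers and the Gal4 driver also differed, and they cannot be told apart from the dose. Here 8 of 59 members had higher levels in bcd RNAi than in 2.4x bcd embryos at cycle 14D and none had lower ones (limma, 4.99% of all genes were higher and 6.43% lower). Atx-1, the ataxin 1 homologue, had 804 and 689 FPKM in bcd RNAi embryos against 132 and 111 FPKM in 2.4x bcd embryos (2.61, SE 0.52, adjusted p = 0.0151). CG42762 had 588 and 485 FPKM in bcd RNAi embryos against 134 and 127 FPKM in 2.4x bcd embryos (2.03, SE 0.34, adjusted p = 0.00764). CG8353 had 67.6 and 47.0 FPKM in bcd RNAi embryos against 12.5 and 20.1 FPKM in 2.4x bcd embryos (1.76, SE 0.38, adjusted p = 0.0194). In none of the 3 did the embryos of the 2 lines overlap. This adds nothing to the calls, since the 3 were chosen by their differences between these same embryos.

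The adhesion gene Ama had 1019 and 816 FPKM in bcd RNAi embryos against 239 and 304 FPKM in 2.4x bcd embryos (1.75, SE 0.26, adjusted p = 0.00478). The remaining 4 were comm2, with 57.8 and 68.5 FPKM in bcd RNAi embryos against 16.7 and 23.4 FPKM in 2.4x bcd embryos (1.62), CG42394 (1.58), CG3036 (1.44) and the augmin gene msd1 (1.42). At cycle 13 the same direction was seen in 7 of the 8, with both bcd RNAi embryos above both 2.4x bcd embryos, and CG3036 overlapped. The share of all genes that separate in this way at cycle 13 was not counted, so whether 7 of 8 is unusual cannot be said. comm2, for example, had 4.19 and 2.73 FPKM in bcd RNAi embryos at cycle 13 against 0.152 and 0.231 FPKM in 2.4x bcd embryos. The median difference over the members was 0.27 against −0.10 over all genes. All 8 calls were lost when any 1 of the 4 embryos was left out and without either hb RNAi embryo 13 were higher and 1 lower, with no filter on low values none was made, and the kallisto values gave 3 higher and 2 lower.

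**Figure D4:**
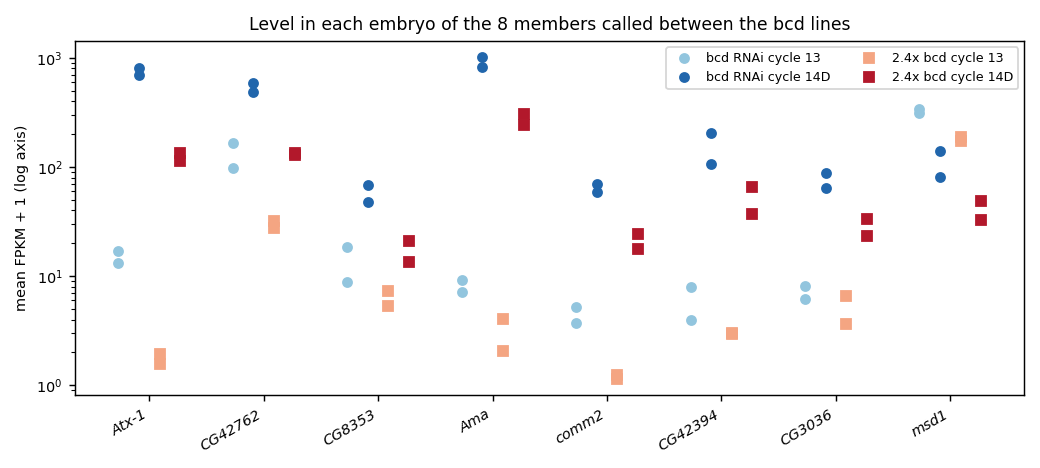
Mean FPKM plus 1 (log axis) of the 8 members whose level differed between the bicoid lines at cycle 14D, 1 point an embryo; circles are bcd RNAi, squares are 2.4x bcd, pale symbols cycle 13 and dark symbols cycle 14D. At cycle 14D the 2 circles lie above the 2 squares in every gene, for example 804 and 689 FPKM against 132 and 111 FPKM in Atx-1, and msd1 alone is higher at cycle 13 than at cycle 14D.

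Between the bicoid lines 8 members were called for level and none for place along the axis, where no gene of all 6575 was called. At an unadjusted p under 0.05, 16 of 59 members differed in level (27.1%), where 29.7% of all genes did. At cycle 14D 9 and 4 members reached the 1.5-fold posterior ratio in the bcd RNAi embryos (3.57% and 2.39% of all eligible genes), and 9 and 9 in the 2.4x bcd embryos (2.36% and 7.11%). No posterior ratio differed between bcd RNAi and 2.4x bcd (limma, 0.00% of all genes; 9 members at an unadjusted p under 0.05, where 7.42% of all genes were) or between bcd RNAi and wild type (0.00% of all genes; 7 members at an unadjusted p under 0.05, where 5.29% of all genes were). The anterior ratio was higher in bcd RNAi than in 2.4x bcd in 47 of the 59 members, with a median difference of 0.31, where 45.9% of all genes were higher and the median was −0.03. No member passed the adjusted threshold there either (0.00% of all genes), and 11 had an unadjusted p under 0.05, where 8.29% of all genes did. The smallest p-values belonged to CG15876 (1.51, SE 0.28), Atx-1 (2.18, SE 0.44), cad (2.95, SE 0.64) and comm2 (2.18, SE 0.48), with adjusted p from 0.233 to 0.328.

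cad shows what this difference looks like slice by slice. In the first bcd RNAi embryo at cycle 14D cad had 77.4 FPKM in slice 1, between 1.12 and 7.61 FPKM in slices 3 to 16, and 67.9 FPKM in the last slice. In the second it had 24.8 and 33.1 FPKM in slices 1 and 2, between 0.730 and 12.9 FPKM in slices 3 to 20, and 47.8 and 26.9 FPKM in slices 22 and 23. Both bcd RNAi embryos thus had cad RNA at both ends. In the 2.4x bcd embryos the first measured slices had 4.85 and 4.15 FPKM and the highest slices, both number 17, had 61.1 and 50 FPKM. The front parts averaged 15.5 and 15.96 FPKM in bcd RNAi embryos, against 1.69 and 3.68 FPKM in 2.4x bcd embryos and 3.39 FPKM in wild type, and the 2 lines did not overlap. The difference from 2.4x bcd had an adjusted p of 0.312 and that from wild type, 4.53 (SE 0.79), one of 0.272. The second bcd RNAi embryo differed from the first at the other end, since its cad posterior share was 38.0% against 70.8% in the first, and pole cell and germ plasm RNAs summed to 220 FPKM in its last slice, below the 241 FPKM of its other slices. The pgc RNA alone had 13.8 FPKM in that slice, against 979 FPKM in the last slice of the first embryo. The part of pole cell and germ plasm RNAs in the cad values of the second embryo was not tested.

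**Figure D5:**
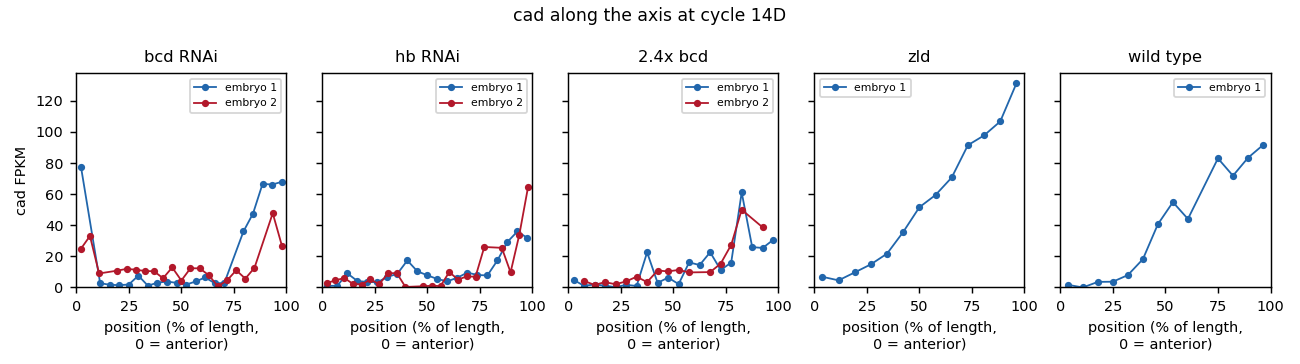
cad FPKM along the axis (percent of embryo length, 0 is anterior) at cycle 14D, 1 panel a line and 1 trace an embryo, with points for measured slices. The bcd RNAi traces are raised in the first slices (77.4 FPKM in 1 embryo, 24.8 and 33.1 FPKM in the other) and again at the end, whereas the traces of the other lines start low and climb.

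Between hb RNAi and 2.4x bcd embryos the mothers' age, the Gal4 driver and the Bicoid dose also differed, and they cannot be told apart from the hunchback hairpin. In hb RNAi embryos no member passed the tests against 2.4x bcd. Against 2.4x bcd at cycle 14D, none differed in level (limma, 0.943% of all genes did; 10 members at an unadjusted p under 0.05, where 12.3% of all genes were). None differed in posterior ratio (0.00% of all genes did; 6 members at an unadjusted p under 0.05, all genes 6.6%) or in anterior ratio (0.00% of all genes did; 4 members, all genes 6.78%). Atx-1 had 236 and 939 FPKM in hb RNAi embryos against 132 and 111 FPKM in 2.4x bcd embryos (1.95, SE 0.52, adjusted p = 0.142). CG3036 had 114 and 59.6 FPKM in hb RNAi embryos against 22.2 and 32.1 FPKM in 2.4x bcd embryos (1.59, SE 0.38, adjusted p = 0.110). For both genes each hb RNAi embryo exceeded each 2.4x bcd embryo, but the share of all genes that separate in this way was not counted. pncr009:3L-RC came nearest the threshold, with 7.0 and 10.2 FPKM in hb RNAi embryos against 1.76 and 2.10 FPKM in 2.4x bcd embryos (1.69, adjusted p = 0.0851). cad stayed posterior in both hb RNAi embryos, with shares of 61.1% and 73.9% against 71.6% and 67.6% in 2.4x bcd embryos. In the hb RNAi embryos 10 and 7 members reached the 1.5-fold posterior ratio (1.5% and 5.13% of all eligible genes).

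The members did not share a time course. From cycle 13 to cycle 14D, 16 of 59 members had higher levels and 23 lower ones in bcd RNAi embryos, in a fit of the 11 SMARTseq2 embryos in which 27.8% of 6930 genes were higher and 33.4% lower. In 2.4x bcd embryos 16 were higher and 17 lower, where 23.2% of all genes were higher and 34.9% lower. With median-ratio scaling of the embryos the split was 18 higher and 16 lower in bcd RNAi and 21 higher and 12 lower in 2.4x bcd embryos, and from the kallisto values it was 18 and 16 in bcd RNAi embryos. The rises were led by Ama in both lines: at cycle 14D it had 1019 and 816 FPKM in bcd RNAi embryos and 239 and 304 FPKM in 2.4x bcd embryos, and at cycle 13 it had 8.29 and 6.21 FPKM in bcd RNAi and 1.07 and 3.04 FPKM in 2.4x bcd embryos, differences of 6.80 and 6.55 (SE 0.32 each). Atx-1 followed (5.64 in bcd RNAi and 6.12 in 2.4x bcd embryos), then CG42394 in bcd RNAi embryos (4.72) and comm2 in 2.4x bcd embryos (4.12).

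The largest falls were those of scw, cad and CG6272. The ligand gene scw had 7.81 and 20.4 FPKM in bcd RNAi embryos at cycle 14D against 286 and 263 FPKM at cycle 13, and 20.2 and 7.14 FPKM in 2.4x bcd embryos at cycle 14D against 264 and 313 FPKM at cycle 13 (−4.33 and −4.46, SE 0.48 each). cad had 20.3 and 13.7 FPKM in bcd RNAi embryos at cycle 14D against 271 and 201 FPKM at cycle 13, and 13.5 and 13.1 FPKM in 2.4x bcd embryos at cycle 14D against 170 and 215 FPKM at cycle 13 (−3.73 and −3.75, SE 0.26 each). CG6272 (Irbp18) fell by 3.65 and 2.82 on the log2 scale. No member's change between cycles passed a test of the difference between the lines in level (limma, 0.592% of all genes did; 7 members at an unadjusted p under 0.05, all genes 14.6%) or in anterior ratio (0.0289% of all genes; 15 members at an unadjusted p under 0.05, all genes 9.39%). As sequencing of a slice gives shares of its RNA, less RNA per cell and fewer cells of a kind cannot be told apart in any of these comparisons.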

How the data were processed

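Single embryos were sliced along the anterior-posterior axis and 1 library was made from each slice. Per the labels and the study's methods, the authors processed reads with CASAVA 1.8.0, aligned them with STAR 2.3.0.1 and quantified them with Cufflinks 2.2.1 against FlyBase annotation; they removed slices with few fly reads or a low mapping rate. The main values are the FPKM per gene that the authors deposited, for 338 slices. The authors also deposited kallisto 0.42 values per transcript for 340 slices, which have the same sum in every slice and were treated as TPM; they were summed per gene (58 of 60 members matched) and used as an alternative. FPKM is scaled to 1 slice's library, so values are relative. There were 45 columns of the FPKM table and 42 of the kallisto table that were not used.

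A slice belonged to the front, middle or rear part of the length that held its midpoint. Means over slices per embryo, plus 1 FPKM, were put on the log2 scale and tested with limma 3.58.1 in R 4.3.3 (lmFit and eBayes with trend, Benjamini-Hochberg over all genes tested, threshold 0.05, two-sided), once over the 8 embryos of cycle 14D and once over the 11 SMARTseq2 embryos, group only. Genes under 15 FPKM in every slice of a fit's embryos were left out. Embryos are separate animals. In simulated data for the levels of bcd RNAi against 2.4x bcd (6575 genes, 200 changed), 0% of changes of 1 log2 unit, 61.5% of 2 and 89.5% of 3 were called; for zld against wild type 0%, 0% and 64.0%. Depth came from the spacing of low FPKM values of genes with 1 transcript of at least 1500 bases. Symbols and positions came from Ensembl release 115 (BDGP6; 13460 of 13587 names and 59 of 60 members matched). Python 3.11.15, pandas 2.3.3, numpy 2.4.6 and matplotlib 3.10.9 were used.

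The members, gene lists and tests were chosen with earlier results of these data known. Named genes were the 12 of highest rank, list members, the 3 largest rises and falls past the threshold per comparison, the ranks around the threshold and the highest and lowest means; others were chosen after their values were seen. Alternatives were pseudocounts of 0.1 and 5 FPKM, no filter or one of 30 FPKM, kallisto TPM, the last slice left out, 2 other definitions of the parts, median-ratio scaling of levels, the replicate number as a block, and leaving out each embryo. The interaction on levels, the other list definitions and the settings of the 1.5-fold counts were added after seeing the data. Promoter sequences and motifs were not analysed here.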

Additional observations from a re-analysis of the deposited data

Results flagged for a closer look

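The members pncr009:3L-RC, CG4537, Rrp40 and CG18619 were flagged because both bcd RNAi embryos at cycle 14D lay on one side of both bcd RNAi embryos at cycle 13, and both 2.4x bcd embryos at cycle 14D on the other side of those at cycle 13. The embryos of the 2 cycles are different animals. The test of that difference itself (limma, 11 embryos, adjusted over 6930 genes) passed the threshold for none of the 4. Of the 59 members, 7 (11.9%) had an unadjusted p under 0.05 in it, where 14.6% of all genes did. The share of all genes that move in opposite directions in this way was not counted, so whether 4 members is unusual cannot be said. For pncr009:3L-RC, a noncoding RNA, the difference between the changes was −1.72 (SE 0.44, adjusted p = 0.114): it had 3.602 and 5.16 FPKM in bcd RNAi embryos at cycle 14D against 7.14 and 10.5 FPKM at cycle 13, and 1.76 and 2.10 FPKM in 2.4x bcd embryos at cycle 14D against 0.624 and 0.600 FPKM at cycle 13. For CG4537 it was −1.15 (adjusted p = 0.215), with changes of −0.55 in bcd RNAi and 0.59 in 2.4x bcd embryos. For the exosome gene Rrp40 it was 1.37 (adjusted p = 0.302), with changes of 1.01 in bcd RNAi and −0.36 in 2.4x bcd embryos. For the bZIP gene CG18619 it was −0.67 (adjusted p = 0.434), with changes of −0.52 in bcd RNAi and 0.15 in 2.4x bcd embryos.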

How the results depend on the processing

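The level difference between bcd RNAi and 2.4x bcd at cycle 14D (8 members) gave 5 members with a pseudocount of 5 FPKM, 0 with no filter on low values and 5 with kallisto TPM, and 0 to 14 when each embryo was left out. For hb RNAi against 2.4x bcd the level count of 0 became 1 with slices split across the borders and lay between 0 and 6 without each embryo. For zld against wild type the level count of 6 became 14 with a pseudocount of 0.1 FPKM and lay between 6 and 15 without each embryo, the higher value without either hb RNAi embryo; the posterior ratio count of 1 was 0 in each of these, and the anterior ratio count of 0 became 1 with kallisto TPM. The 39 and 33 members that changed between cycles became 27 to 45 in bcd RNAi and 22 to 39 in 2.4x bcd embryos. The level interaction (0) became 1 with a pseudocount of 5 FPKM and 1 with median-ratio scaling, and 0 to 2 without each embryo. All other total counts of calls stayed within 1.5 times under the alternatives run. Their directions could move more: the 16 higher and 23 lower members of bcd RNAi between cycles became 10 and 29 with parts over measured slices, where the members are chosen anew. The largest rises and falls past the threshold in each comparison and the cad anterior ratios kept their sign in every alternative run. Other differences named in the text were not followed in this way. With the replicate number as a block, 7 members differed between the bicoid lines, 8 between zld and wild type and 41 and 33 between cycles in bcd RNAi and 2.4x bcd embryos; deviations of same-numbered embryos correlated between −0.32 and 0.18, so the numbers do not pair the embryos. The causes of these shifts were not tested. In simulated data for cycle 14D (bcd RNAi against 2.4x bcd and zld against wild type) 0% of changes of 1 log2 unit were called, and shallow slices limit the shares of short, weakly expressed members.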
